A study of Mus musculus with 4 samples.

Results

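The 10 genes described here encode immune checkpoint receptors and ligands, and were taken from the 31055 features of the deposited matrix by their symbols: Pdcd1, Ctla4, Lag3, Havcr2 and Tigit as the 5 receptors, and Cd274, Pdcd1lg2, Cd80, Cd86 and Vsir as the 5 ligands. Checkpoint receptors sit mostly on activated T cells and dampen signalling when they bind their ligands on antigen-presenting cells, tumor cells or stroma. PD-1 binds PD-L1 and PD-L2, CTLA-4 competes with CD28 for CD80 and CD86, and TIGIT, LAG-3, TIM-3 and VISTA use partners of their own. In lung tumors these pairs are known as the targets of antibodies that restore T cell activity.

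Cells came from microdissected lung tumors of 4 female mice in which Lenti-Cre, given into the trachea, had switched on tdTomato and trapped both Lkb1 alleles, and tumors grew for 16 weeks. All 4 carried Lkb1XTR/XTR, with Rosa26LSL-tdTomato alone in the 2 Non-Restored mice and with Rosa26LSL-tdTomato/FLPo-ERT2 in the 2 Restored mice, in which tamoxifen lets FLPo-ERT2 remove the trap and return Lkb1. Per the labels all 4 received tamoxifen in doses of 4 mg for 2 weeks, while the series text names corn oil or tamoxifen; ages were not given. Every viable cell was taken, without a sort for immune or tumor cells, so T, myeloid and vascular cells of the host are in the data, and all of them carried the Lkb1XTR/XTR genotype. FLPo-ERT2 at Rosa26 is not limited to tumor cells.

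The 4 libraries were deposited as 1 matrix of 20351 cells and 58624795 UMIs (unique molecular identifiers, counts of distinct captured mRNA molecules), in which a cell has only a column number. No file used here links a cell to its mouse, so cell barcodes shared between libraries could not be counted, Restored and Non-Restored cells were not compared, and the matrix counts as 1 sample with no test. The filters kept 19488 cells, whose median depth was 1950 UMIs and whose median number of detected genes was 853. Cell classes were set by marker UMIs with no checkpoint gene among them: 16858 cells fell in 1 of 16 lineages and 13495 in 1 of 24 classes, while 2630 cells met no lineage gate. In 27 checks with markers outside the gates, the named class ranked first among the 24 in 19 and among the first 3 in all 27. Pecam1 was the check for general capillary, aerocyte and larger vessel endothelial cells alike, so it does not tell these classes apart. Mrc1, a check for C1q macrophages, was higher in alveolar macrophages, at 991 against 227 CPM. All 915 aerocyte UMIs of the immunoglobulin gene Ighm came from 1 cell. A level below is in CPM, the class's summed UMIs of a gene scaled to 1000000 UMIs of that class, with an exact Poisson 95% interval. These intervals, like those of ratios and shares, cover counting error only, not the spread between mice.

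**Figure D1:**
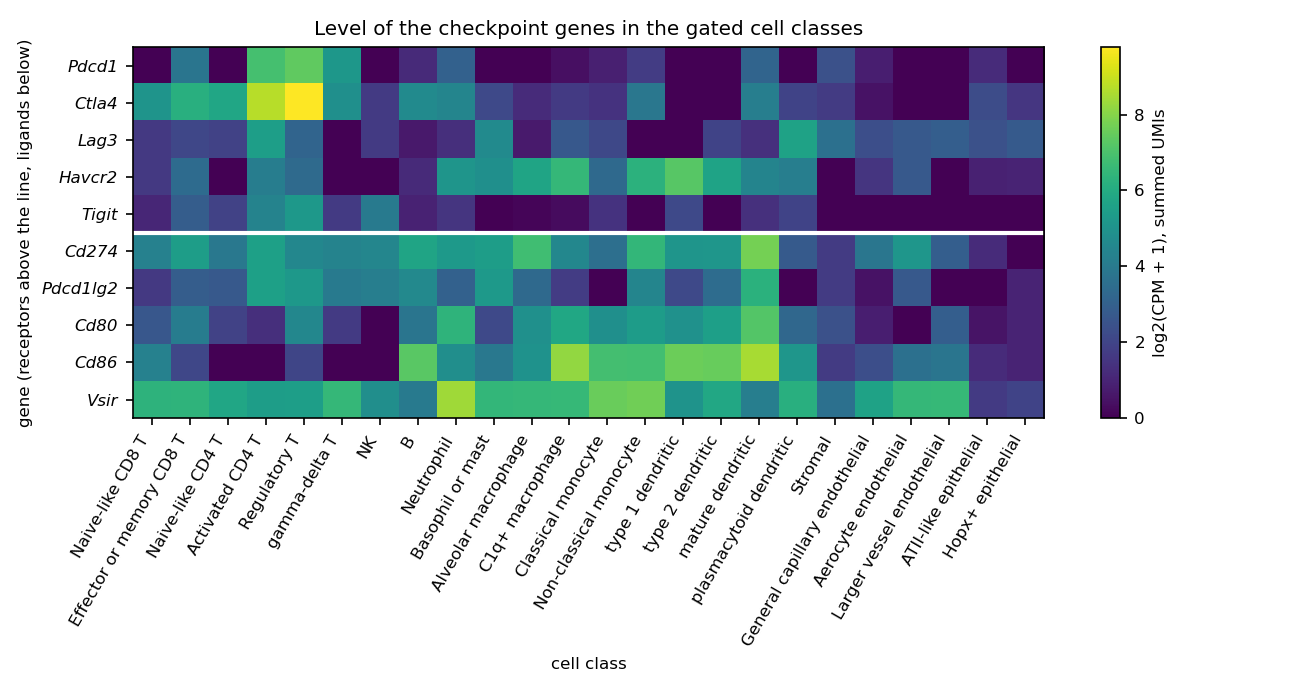
Level of each checkpoint gene in each of the 24 gated cell classes, as log2(CPM + 1) of summed UMIs, with receptors above the white line and ligands below. Pdcd1 and Ctla4 are brightest in regulatory and activated CD4 T cells, Havcr2 in type 1 dendritic cells (150 CPM), most ligands in mature dendritic cells, and Vsir in neutrophils (330 CPM).

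The receptor genes split into a T cell group and a gene of myeloid cells. T cells held 75.6% of the 521 Pdcd1 UMIs, 78.4% of the 2254 Ctla4 UMIs and 68.5% of the 111 Tigit UMIs, but 32.5% of the 234 Lag3 UMIs and 1.61% of the 1990 Havcr2 UMIs. For Havcr2 the largest shares lay in macrophages with complement C1q genes (42.1%) and alveolar macrophages (27.8%). For Lag3, the C1q macrophages held 21.8%. Cells in no gate held between 9.40% and 16.3% of the UMIs of the 5 receptors.

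**Figure D2:**
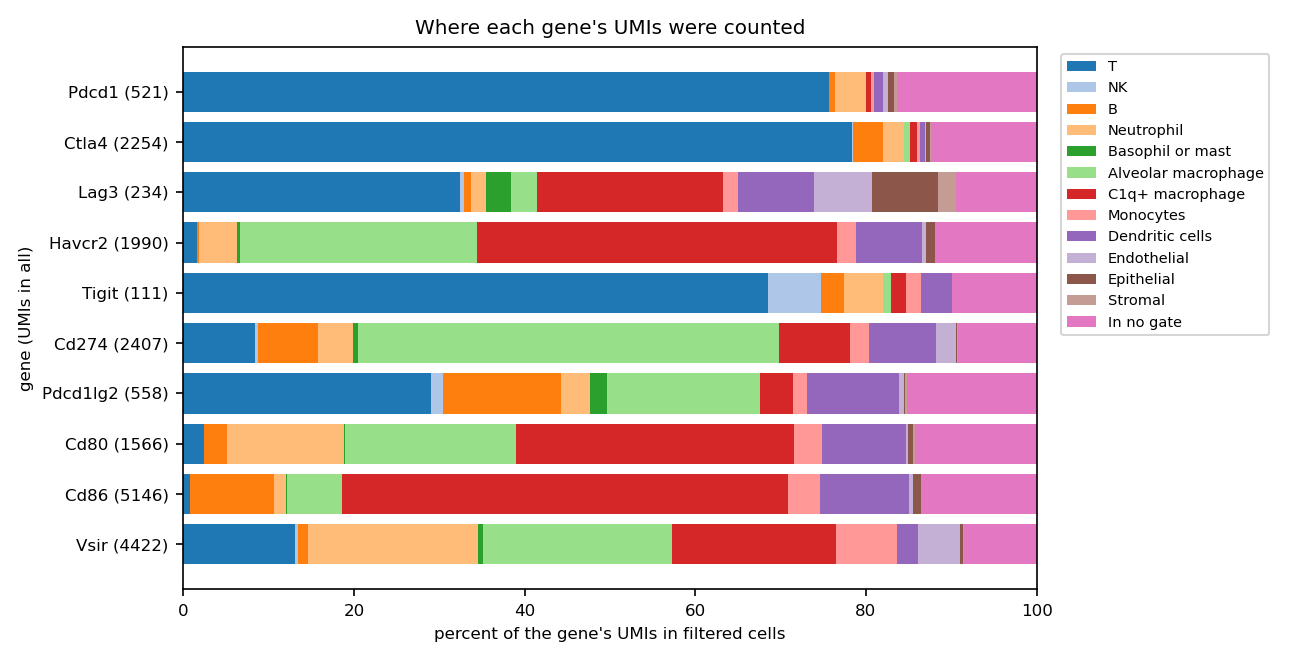
Share of each gene's UMIs found in each lineage, as percent of its UMIs over all filtered cells, with the number of UMIs in brackets. The bars of Pdcd1, Ctla4 and Tigit are mostly T cells, those of Havcr2 and Cd86 are mostly macrophages, and epithelial cells hold 0.166% of Cd274.

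Pdcd1 (ENSMUSG00000026285, mm10 chromosome 1, 94038305 to 94052553, minus strand) encodes PD-1, the receptor that recruits phosphatases to the T cell receptor. Regulatory T cells (Foxp3 UMI, 247 cells) had the highest level, 165 CPM (135 to 200) from 105 UMIs. Activated conventional CD4 T cells (288 cells) followed with 119 CPM (94.0 to 148) from 78 UMIs. The difference between both was a log2 ratio of 0.47 (0.04 to 0.92), just beyond counting error. The activated CD4 class was not cleared of cells with UMIs of Il2ra or Ikzf2, genes that were highest in regulatory T cells. Pdcd1 was not recomputed without such cells. Gamma-delta T cells, next in order, had 35.0 CPM (20.0 to 56.8), below activated CD4 T cells by a log2 ratio of 1.77 (0.98 to 2.64).

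T cells gated as CD8 held few Pdcd1 UMIs. Any T cell with no Cd8a or Cd8b1 UMI was outside this gate, whatever its type. Effector or memory CD8 T cells (141 cells with more of Ccl5, Nkg7, Gzmk and like genes than of naive genes) had 4 UMIs in 3 cells, 12.9 CPM (3.52 to 33.1), which did not differ beyond counting error from gamma-delta T cells. Naive-like CD8 T cells had 0 UMIs in 454 cells, which allows up to 3.15 CPM, and naive-like CD4 T cells had 0 UMIs in 207 cells, which allows up to 8.50 CPM. Over the naive-like CD8 limit of 3 UMIs, the measured level in effector or memory CD8 T cells was 4.11-fold higher, a log2 ratio of 2.04. It rests on 4 UMIs, whose interval starts at 3.52 CPM, close to the limit of 3.15 CPM. The exact interval of 4 against 0 UMIs, which does not use that limit, has a lower end of log2 1.03. As a mean of per-cell CPM the log2 ratio against 3 UMIs was 1.32. Activated CD4 T cells lay above effector or memory CD8 T cells by a log2 ratio of 3.20 (1.79 to 5.11). NK cells (357) and alveolar macrophages (2029) had no Pdcd1 UMI. At an equal depth of 1000 UMIs per cell, 13.1% of regulatory T cells (exact binomial interval 8.87 to 18.4) had a Pdcd1 UMI against 0.174% of general capillary endothelial cells, a type that should lack it, and without thinning 29.6% and 0.163%, at median depths of 1882 and 1939 UMIs.

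Most T cells could not be given a subset: of 4356, 2539 had no UMI of Cd4, Cd8a, Cd8b1, Foxp3 or Trdc. These 2539 held 33.6% of all Pdcd1 UMIs and 33.7% of all Ctla4 UMIs. How many of the 2539 were CD8 T cells was not tested, so the subset levels above describe the gated part only. A split of the 2539 by the naive and activated gene lists, chosen after the data were seen, gave 65.6 CPM (55.8 to 76.6) of Pdcd1 in the 1289 activated cells and 2.59 CPM (0.705 to 6.63) in the 965 naive-like cells. The same split gave Ctla4 258 CPM (238 to 279) and 42.7 CPM (33.0 to 54.3). Vsir had 75.5 and 73.1 CPM there, a log2 ratio of 0.05 (-0.30 to 0.40).

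Ctla4 (ENSMUSG00000026011, chromosome 1, 60887000 to 60915832, plus strand), the receptor that takes CD80 and CD86 from CD28, had its highest level in regulatory T cells, 878 CPM (807 to 954) from 558 UMIs. Activated CD4 T cells had 427 CPM (379 to 480), naive-like CD4 T cells 53.9 CPM (32.4 to 84.1), effector or memory CD8 T cells 71.1 CPM (44.6 to 108) and naive-like CD8 T cells 32.5 CPM (22.1 to 46.1). The log2 ratio of regulatory over activated CD4 T cells was 1.04 (0.83 to 1.25), and that of activated over naive-like CD4 T cells 2.99 (2.32 to 3.74). Where activated CD4 T cells also had to lack Il2ra and Ikzf2 UMIs, 143 of their 280 Ctla4 UMIs remained. The first ratio was then 1.41 (1.14 to 1.68), and the second was not recomputed. Below activated CD4 T cells, the neighbours in the order from effector or memory CD8 T cells down to B cells (24.7 CPM) did not differ beyond counting error. At 1000 UMIs per cell, 57.0% of 214 regulatory T cells had a Ctla4 UMI (50.1 to 63.7) against 0 of 1152 general capillary endothelial cells, which allows a share of up to 0.260%. Without thinning the shares were 74.5% and 0.0814%.

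A gene could be called between 2 classes where either had at least 50 CPM, and was called at a 2-fold difference of CPM + 10. Few members reached that level in a given pair, often through the class where they are high. The counts and medians of members are therefore descriptions, and their distance from the values over all genes is not read as a result. In regulatory and activated CD4 T cells 2 of the 10 did, Pdcd1 and Ctla4. Of these Ctla4 was called higher in regulatory T cells, where 2.5% of 2801 genes were, and neither was called lower, where 2.53% of them were. The median log2 difference was 0.73 over the 2 members and 0.06 over all genes at that level. Regulatory T cells carry high Ctla4 in textbook descriptions, and Foxp3 set this class apart within the T cells. Activated over naive-like CD4 T cells gave 2 of the 3 members at that level higher, Pdcd1 and Ctla4, and none lower, beside 14.9% of 2685 genes higher and 3.5% lower. The 3 members had a median of 2.78 there and all genes at that level one of 0.35. Regulatory over naive-like CD4 T cells gave the same 2 of 3 higher and none lower, beside 21.3% and 4.64% of 2716 genes, and so did activated CD4 over effector or memory CD8 T cells, beside 4.54% and 2.57% of 2729 genes. In effector or memory over naive-like CD8 T cells 2 members reached the level, Ctla4 and Vsir, and neither was called, beside 7.86% of 2443 genes higher and 2.62% lower.

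At 1000 UMIs per cell, detection of Ctla4 in regulatory T cells went with that of Maf: 45.9% of 122 cells with Ctla4 (36.8 to 55.2) and 21.7% of 92 without (13.8 to 31.6) had a UMI of Maf, a transcription factor of activated helper cells. In the T cells without subset UMIs, 52.4% of 63 cells with Pdcd1 (39.4 to 65.1) and 10.9% of 2252 without (9.66 to 12.3) had a Ctla4 UMI. That pool mixes naive-like and activated cells, whose levels of both genes differ. Within activated CD4 T cells, 46.7% of 30 with Pdcd1 (28.3 to 65.7) and 29.3% of 246 without (23.7 to 35.4) had a Ctla4 UMI, which overlap. Within regulatory T cells the corresponding shares for Ctla4 were 64.3% of 28 (44.1 to 81.4) and 55.9% of 186 (48.5 to 63.2), which overlap. Cells of one class share their libraries, so these shares describe cells and not mice.

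For Pdcd1 and Ctla4, the genes called higher in activated CD4 T cells, the 250 bases before the RefSeq start are given so that the T cell pattern can be read beside its promoter. Capitals mark GGAAA on either strand, the core bound by NFAT, a factor that T cell receptor signals bring into the nucleus. The Pdcd1 stretch is chr1:94052554-94052803 on the minus strand and that of Ctla4 is chr1:60908775-60909024 on the plus strand (GRCm38.p6, 5′ to 3′).
Pdcd1: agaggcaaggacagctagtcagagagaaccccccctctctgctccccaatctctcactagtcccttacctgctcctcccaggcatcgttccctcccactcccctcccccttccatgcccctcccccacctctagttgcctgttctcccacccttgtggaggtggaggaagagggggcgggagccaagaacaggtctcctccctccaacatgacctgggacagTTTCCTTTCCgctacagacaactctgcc
Ctla4: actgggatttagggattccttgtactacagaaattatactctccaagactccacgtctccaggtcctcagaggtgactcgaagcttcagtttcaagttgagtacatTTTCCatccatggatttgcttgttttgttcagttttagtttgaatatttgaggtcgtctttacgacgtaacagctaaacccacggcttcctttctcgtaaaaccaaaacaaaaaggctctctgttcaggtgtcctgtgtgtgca
The letters occurred 2 times before Pdcd1 and 1 time before Ctla4, and in 55.6% of 32851 listed promoters of this length, so the match is a description only.

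Tigit (ENSMUSG00000071552, chromosome 16, 43648867 to 43664146, minus strand) encodes a receptor that competes with CD226 for nectin-like proteins such as PVR. It had the fewest UMIs of the members, and the order of its levels rests on 23 UMIs in regulatory T cells, 36.2 CPM (22.9 to 54.3), 13 in activated CD4 T cells, 19.8 CPM (10.6 to 33.9), and 7 in NK cells, 15.0 CPM (6.03 to 30.9). No neighbour in this order differed from the next beyond counting error; the log2 ratio of regulatory over activated CD4 T cells was 0.87 (-0.17 to 1.97). Effector or memory CD8 T cells had 2 Tigit UMIs. Endothelial and epithelial cells had none, which allows up to 0.772 and 0.798 CPM.

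Lag3 (ENSMUSG00000030124, chromosome 6, 124904361 to 124911705, minus strand), a CD4-related receptor for MHC class II, did not follow Pdcd1 and Ctla4 in regulatory T cells. Plasmacytoid dendritic cells had 48.7 CPM (28.4 to 78.0) from 17 UMIs in 16 cells, and activated CD4 T cells 44.2 CPM (29.6 to 63.5) from 29 UMIs in 17 cells. Regulatory T cells had 7.87 CPM (2.55 to 18.4), lower than activated CD4 T cells by a log2 ratio of -2.49 (-4.22 to -1.11). Effector or memory CD8 T cells had 1 UMI, NK cells 1 and gamma-delta T cells 0. The C1q macrophages held 51 UMIs in 50 of 2110 cells, yet at 5.51 CPM (4.10 to 7.25) they were near the general capillary endothelial cells at 4.13 CPM (2.06 to 7.40). At 1000 UMIs per cell, 13.3% of 30 activated CD4 T cells with Pdcd1 (3.76 to 30.7) and 2.03% of 246 without (0.663 to 4.68) had Lag3. These were 4 and 5 cells, and the intervals overlap. In regulatory T cells 0 of 28 with Pdcd1 and 3 of 186 without had Lag3.

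**Figure D3:**
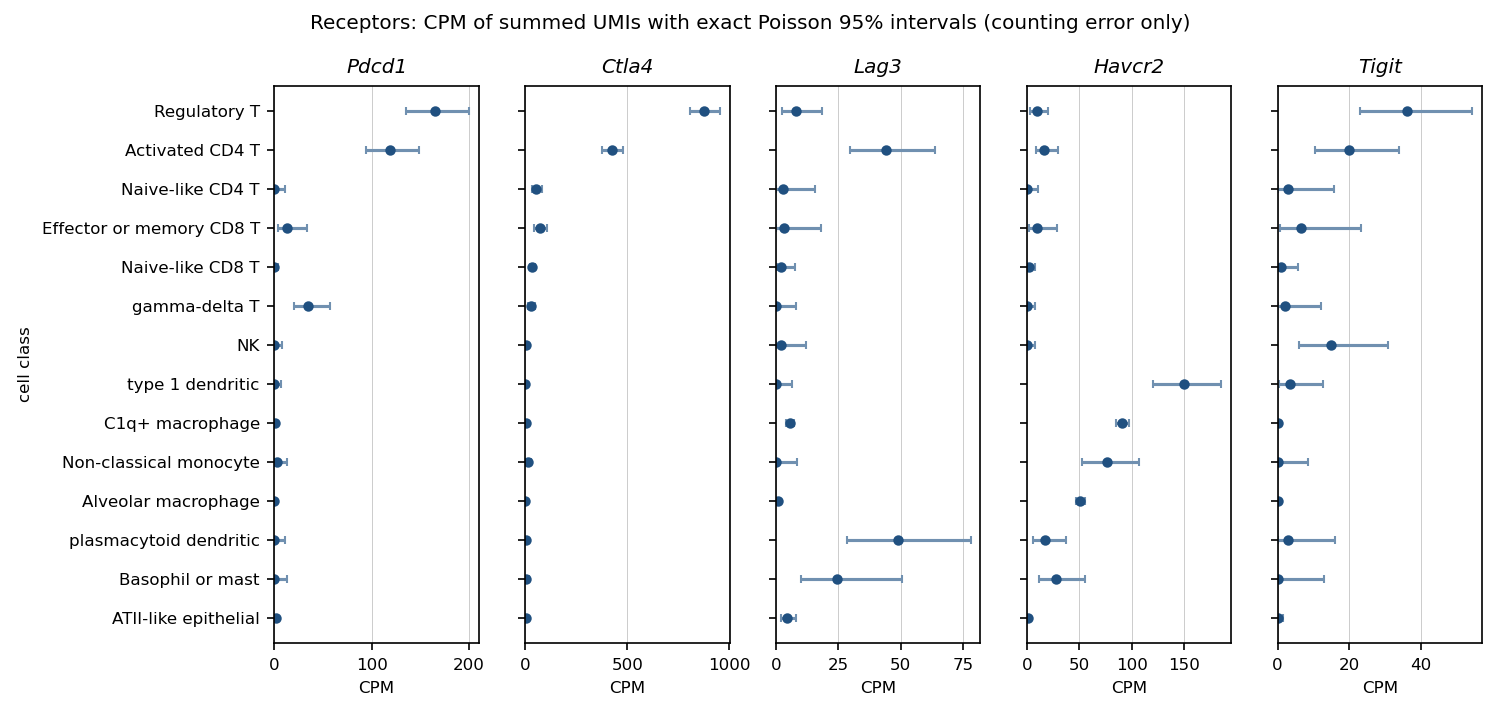
Levels of the 5 receptor genes in 14 cell classes (CPM of summed UMIs, 1 axis per gene; bars are exact Poisson 95% intervals of counting error). Pdcd1, Ctla4 and Tigit peak in regulatory T cells, Lag3 in plasmacytoid dendritic and activated CD4 T cells, and Havcr2 in type 1 dendritic cells.

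Havcr2 (ENSMUSG00000020399, chromosome 11, 46454935 to 46481255, plus strand) encodes TIM-3, known on exhausted T cells and on dendritic cells and macrophages, where it can restrain responses to nucleic acids. Type 1 conventional dendritic cells (106 cells, Xcr1 and Clec9a gate) had 150 CPM (120 to 185) from 85 UMIs. C1q macrophages had 90.6 CPM (84.5 to 96.9), non-classical monocytes 76.1 CPM (52.4 to 107), alveolar macrophages 51.0 CPM (46.9 to 55.5) and type 2 dendritic cells 50.3 CPM (37.5 to 66.1). Classical monocytes, at 9.16 CPM (4.57 to 16.4), were below non-classical ones by a log2 ratio of 3.05 (2.03 to 4.19). The T and NK classes were low, with 11 UMIs in 4 activated CD4 T cells, 6 in regulatory T cells, 3 in effector or memory CD8 T cells and 0 in NK and naive-like CD4 T cells.

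The log2 ratio of Havcr2 in type 1 dendritic over effector or memory CD8 T cells was 3.95 (2.35 to 6.25), and over type 2 dendritic cells 1.57 (1.06 to 2.10). Of the 4 checkpoint genes at 50 CPM in either class, 2 (Havcr2 and Cd86) were called higher and 2 (Ctla4 and Vsir) lower in type 1 dendritic than in effector or memory CD8 T cells, beside 17.6% and 14.6% of 2883 genes. Against type 2 dendritic cells, Havcr2 was the 1 member of 3 at that level called higher and none was lower, beside 3.75% and 7.13% of 2694 genes. At matched depth the share of cells with a Havcr2 UMI was 9.52% of 105 type 1 dendritic cells and 9.43% of 2089 C1q macrophages, and that of 1152 general capillary endothelial cells was 0, which allows up to 0.260%. The difference in CPM between the first 2 was not seen in these shares, and no order is read from them. Counted at full depth, with a median of 5095, 4249 and 1939 UMIs per cell, a Havcr2 UMI was in 46.2%, 31.0% and 0.407% of these 3 classes.

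Among the ligands, mature dendritic cells had the highest level of 4 of 5, and Vsir had another pattern. Mature dendritic cells (144 cells, gated on Ccr7, Fscn1, Ccl22, Cacnb3, Nudt17 and Il4i1) are dendritic cells that have taken up antigen and moved toward lymphatics. Their Cd274 level was 211 CPM (177 to 249), their Pdcd1lg2 level 74.9 CPM (55.2 to 99.3), their Cd80 level 140 CPM (113 to 173) and their Cd86 level 365 CPM (320 to 415). The corresponding levels in type 2 dendritic cells (218 cells) were 34.5 CPM (24.0 to 48.0), 9.86 CPM (4.73 to 18.1), 44.4 CPM (32.4 to 59.4) and 181 CPM (156 to 210). Every one of these 4 was higher in the mature cells beyond counting error, with log2 ratios of 2.61 (2.06 to 3.19), 2.93 (1.92 to 4.07), 1.66 (1.13 to 2.21) and 1.01 (0.72 to 1.30). Vsir went the other way, with 17.2 CPM (8.57 to 30.7) in mature and 57.2 CPM (43.4 to 73.9) in type 2 dendritic cells, a log2 ratio of -1.74 (-2.82 to -0.79).

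With the offset of 10 CPM, 3 of the 6 checkpoint genes at that level (Cd274, Pdcd1lg2 and Cd80) were called higher and 1 (Vsir) lower in mature than in type 2 dendritic cells, beside 11.1% and 15% of 2834 genes. The median log2 difference was 1.22 over the 6 members and -0.15 over all genes at that level. Joint detection of the 2 PD-1 ligands was rare at 1000 UMIs per cell: 0 of 26 mature dendritic cells with Cd274 (up to 13.2%) and 9 of 118 without (3.55 to 14.0%) had Pdcd1lg2, intervals that overlap. Of 26 cells with Cd80, 42.3% (23.4 to 63.1) had Cd86, and of 118 without, 20.3% (13.5 to 28.7).

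**Figure D4:**
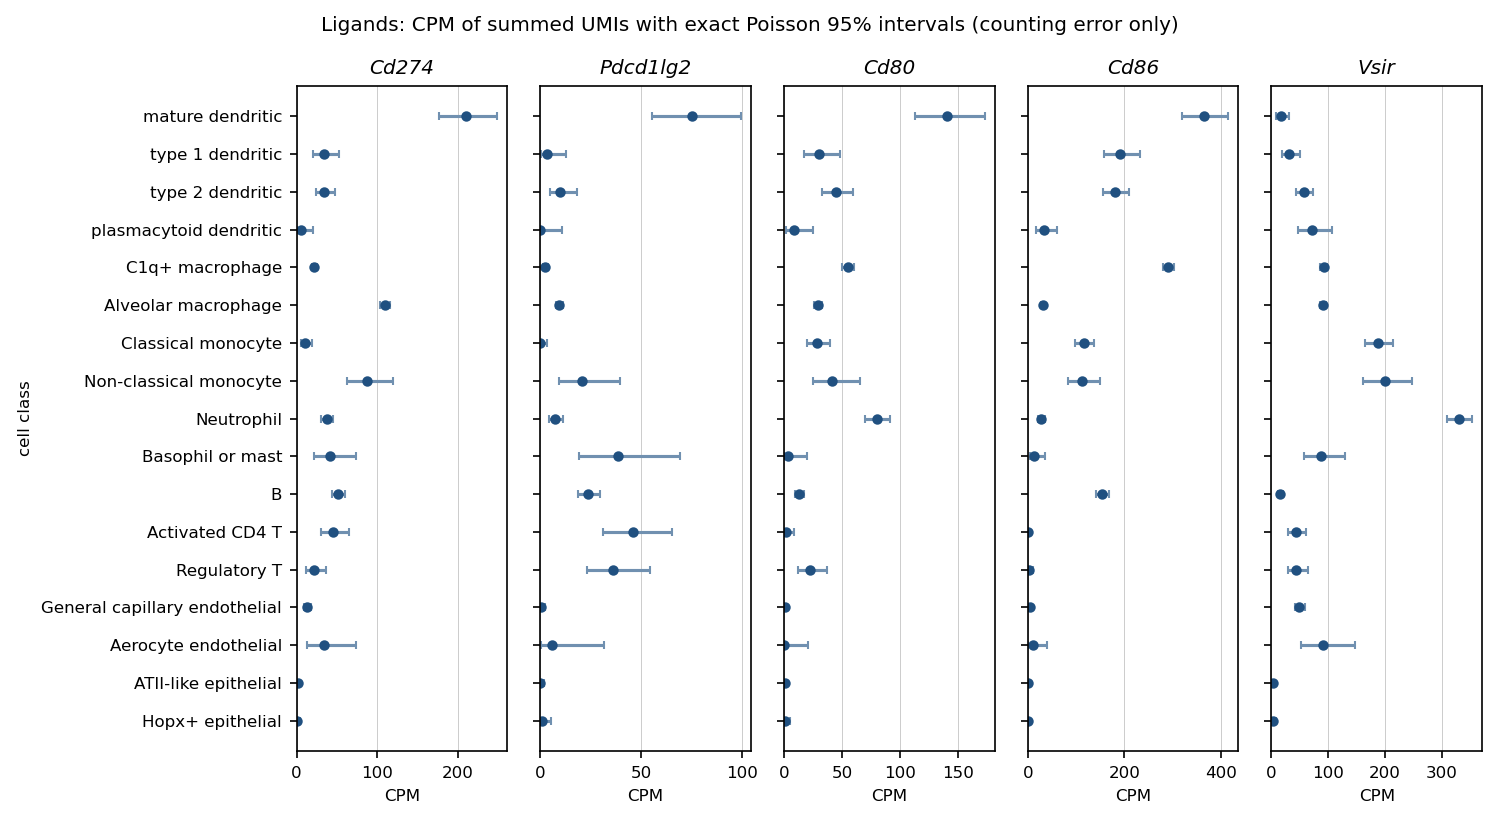
Levels of the 5 ligand genes in 17 cell classes (CPM of summed UMIs, 1 axis per gene; bars are exact Poisson 95% intervals of counting error). Mature dendritic cells are highest for Cd274, Pdcd1lg2, Cd80 and Cd86, alveolar macrophages are second for Cd274 at 110 CPM, and neutrophils are highest for Vsir; both epithelial classes lie near 0 in every panel.

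Cd274 (ENSMUSG00000016496, chromosome 19, 29367455 to 29388095, plus strand) and Pdcd1lg2 (ENSMUSG00000016498, chromosome 19, 29410919 to 29471161, plus strand) encode PD-L1 and PD-L2 and are neighbours, 22824 bases apart. They are shown with Cd80, since these 3 were called higher in mature dendritic cells. Each line is the 250 bases before the RefSeq start on the plus strand (GRCm38.p6, 5′ to 3′): chr19:29367188-29367437, chr19:29410669-29410918 and chr16:38458683-38458932. Capitals mark a loose form of the site bound by NF-kappa B, GGG and CC with any 5 bases between them, and TGANTCA, the site bound by AP-1, on either strand.
Cd274: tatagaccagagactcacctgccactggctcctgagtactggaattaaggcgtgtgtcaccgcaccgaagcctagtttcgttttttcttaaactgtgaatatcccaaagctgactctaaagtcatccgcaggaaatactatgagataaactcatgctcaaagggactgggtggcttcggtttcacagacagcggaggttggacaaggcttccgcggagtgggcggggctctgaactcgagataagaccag
Pdcd1lg2: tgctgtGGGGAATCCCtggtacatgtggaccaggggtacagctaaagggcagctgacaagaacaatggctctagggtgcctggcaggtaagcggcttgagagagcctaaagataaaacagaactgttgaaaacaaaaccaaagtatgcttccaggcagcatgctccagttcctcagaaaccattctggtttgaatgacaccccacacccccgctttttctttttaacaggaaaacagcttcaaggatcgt
Cd80: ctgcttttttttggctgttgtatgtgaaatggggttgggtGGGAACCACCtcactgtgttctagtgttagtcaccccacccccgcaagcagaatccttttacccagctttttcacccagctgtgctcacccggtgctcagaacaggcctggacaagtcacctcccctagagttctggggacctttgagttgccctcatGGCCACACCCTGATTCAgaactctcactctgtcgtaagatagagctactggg
The NF-kappa B letters were found 1 time before Pdcd1lg2, 2 times before Cd80 and not in the Cd274 window, and in 45.8% of 32851 promoters of this length. The AP-1 letters were found 1 time before Cd80, directly after the second NF-kappa B match, and in 6.75% of those promoters. The STAT letters TTCNNNGAA were in none of the 8 members' windows listed and in 7.02% of all, and an IRF motif of a pair of GAAA with any 2 bases between them was in none of the 8 and in 2.98% of all. Lag3 and Cd86 were not listed.

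Alveolar macrophages, the phagocytes of the airspace, held 49.4% of all Cd274 UMIs, at 110 CPM (103 to 116) from 1188 UMIs in 788 of 2029 cells. Non-classical monocytes had 87.6 CPM (62.0 to 120), which overlaps, B cells 51.2 CPM (43.8 to 59.6), C1q macrophages 21.8 CPM (18.9 to 25.1) and classical monocytes 10.8 CPM (5.77 to 18.5). The epithelial lineage, which holds the tumor cells, had 4 Cd274 UMIs in 882 cells: 3 in 482 alveolar type II-like cells, 1.29 CPM (0.267 to 3.78), and 0 in 280 Hopx-positive cells, which allows up to 2.93 CPM. General capillary endothelial cells had 13.2 CPM (9.16 to 18.3) and aerocytes 34.0 CPM (12.5 to 74.0), a log2 ratio of 1.37 (-0.17 to 2.64). At 1000 UMIs per cell 10.2% of alveolar macrophages and 0.210% of type II-like cells had a UMI, and before thinning 38.8% and 0.622%, at median depths of 5444 and 4616 UMIs.

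TdTomato UMIs were found in 1905 of the 2029 alveolar macrophages. The source of these UMIs was not tested. The level of Cd274 was 108 CPM in cells with a TdTomato UMI and 137 CPM in the 124 without, a log2 ratio of -0.35 (-0.69 to 0.02). Cd86 was lower in the cells with a TdTomato UMI, 29.8 and 49.0 CPM with a log2 ratio of -0.72 (-1.30 to -0.08), and Vsir higher, 92.1 and 60.3 CPM with 0.61 (0.10 to 1.17). The intervals of the other members, where both groups had UMIs, included 0.

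Pdcd1lg2 UMIs were also found in lymphocytes. After mature dendritic cells came activated CD4 T cells with 45.8 CPM (30.9 to 65.3), basophils or mast cells with 38.6 CPM (19.2 to 69.0), regulatory T cells with 36.2 CPM (22.9 to 54.3) and B cells with 23.5 CPM (18.5 to 29.4). These neighbours did not differ beyond counting error. The T cells together held 29.0% of the 558 UMIs, 162 UMIs in 150 cells. Of these, 30 were in 27 activated CD4 T cells with at most 2 each and 23 in 23 regulatory T cells with 1 each. T cells in no subset held 96 in 87 cells. Naive-like CD4 T cells had 2 UMIs, 5.67 CPM, which is below activated CD4 T cells by a log2 ratio of 3.01 (1.03 to 6.12), and classical monocytes had 0 in 391 cells, which allows up to 2.50 CPM. Alveolar macrophages had 9.23 CPM (7.51 to 11.2) and C1q macrophages 2.38 CPM (1.49 to 3.60).

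Cd80 (ENSMUSG00000075122, chromosome 16, 38455561 to 38496335, plus strand) and Cd86 (ENSMUSG00000022901, chromosome 16, 36603869 to 36666081, minus strand) encode the ligands that CD28 and CTLA-4 share. Their orders differed below mature dendritic cells. For Cd80, neutrophils came next with 80.1 CPM (69.8 to 91.6) from 214 UMIs in 181 of 1909 cells, then C1q macrophages with 55.0 CPM (50.3 to 60.0). For Cd86, C1q macrophages came next with 291 CPM (280 to 302) and held 52.3% of the 5146 UMIs, then type 1 and type 2 dendritic cells with 192 and 181 CPM and B cells with 154 CPM (141 to 168), while neutrophils had 27.7 CPM (21.8 to 34.8). In neutrophils outside the cluster that monocytes led, an alternative added after the data were seen, Cd80 was at 84.0 CPM, Cd86 at 16.6 CPM, Havcr2 at 21.1 in place of 33.3 CPM and Vsir at 349 CPM. Neutrophils over classical monocytes gave a log2 ratio of 1.50 (0.97 to 2.07) for Cd80 and -2.06 (-2.49 to -1.65) for Cd86. Of 3 members at 50 CPM in either class, these were the 1 called higher and the 1 called lower, beside 17% and 16.2% of 3076 genes.

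The 2 macrophage classes had opposite levels of Cd86 and Cd274. C1q macrophages lay above alveolar macrophages for Cd86, 291 and 30.7 CPM, by a log2 ratio of 3.24 (3.08 to 3.41), and below them for Cd274, 21.8 and 110 CPM, by -2.33 (-2.55 to -2.11). Cells with a TdTomato UMI are kept here, whereas TdTomato-positive cells were excluded outside the epithelium by the authors. Without them the Cd86 ratio was 2.60 (2.05 to 3.22). Of 5 checkpoint genes at 50 CPM in either class, Cd86 was the 1 called higher and Cd274 the 1 called lower, beside 8.55% and 14.4% of 3194 genes. Havcr2 and Cd80 were also higher in the C1q cells, by 0.83 (0.67 to 0.98) and 0.92 (0.71 to 1.13), and the Vsir ratio was 0.02 (-0.11 to 0.16). The median log2 difference was 0.72 over the 5 members and -0.18 over all genes at that level.

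Vsir (ENSMUSG00000020101, chromosome 10, 60346851 to 60372684, plus strand) encodes VISTA, a checkpoint protein of myeloid and resting T cells. It lies within Cdh23, which is on the opposite strand. Neutrophils had 330 CPM (309 to 353) from 882 UMIs, non-classical monocytes 201 CPM (161 to 247), classical monocytes 188 CPM (165 to 214), C1q macrophages 92.1 CPM (86.0 to 98.5) and alveolar macrophages 90.5 CPM (85.0 to 96.4). The log2 ratio of classical monocytes over alveolar macrophages was 1.06 (0.84 to 1.27), and without cells that had a TdTomato UMI 1.77 (1.21 to 2.36). That of neutrophils over classical monocytes was 0.81 (0.60 to 1.03). In classical monocytes over alveolar macrophages, 1 of 4 members at 50 CPM in either class was called higher (Cd86) and 2 lower (Havcr2 and Cd274), beside 9.93% and 16.5% of 3262 genes. The median log2 difference was -0.35 over the 4 members and -0.14 over all genes at that level. With the offset Vsir did not reach 2-fold there.

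In CD8 T cells the intervals of Vsir overlapped those of the macrophages, with 79.7 CPM (62.8 to 99.7) in naive-like and 80.8 CPM (52.3 to 119) in effector or memory cells. The CD4 classes had lower values, with 53.9 CPM from 19 UMIs in naive-like T cells. Activated CD4 T cells had 42.7 CPM (28.4 to 61.7) and regulatory T cells 44.1 CPM (29.3 to 63.7). For Vsir both intervals overlapped that of effector or memory CD8 T cells, and the naive-like CD4 value lay inside that one. In endothelium it had 49.2 CPM (41.2 to 58.4) in general capillary cells and 90.7 CPM (51.8 to 147) in 77 aerocytes, a log2 ratio of 0.88 (0.03 to 1.64), while type II-like epithelial cells had 2.16 CPM (0.700 to 5.03). Vsir was the 1 member at 50 CPM in either of these, and it was not called, beside 11.7% of 3961 genes higher and 6.19% lower. Cycling T cells (121 with at least 2 mitotic genes) had less Vsir than other T cells, 39.1 and 73.2 CPM with a log2 ratio of -0.91 (-1.55 to -0.33), and more Pdcd1, 98.5 and 43.6 CPM with 1.18 (0.76 to 1.57), and more Ctla4, 355 and 203 CPM with 0.81 (0.60 to 1.01).

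Non-classical over classical monocytes gave 2 of 4 members at 50 CPM called higher, Havcr2 and Cd274 (87.6 and 10.8 CPM, log2 ratio 3.02, 2.08 to 4.05), and none lower, beside 9.67% and 2.98% of 3184 genes. NK over effector or memory CD8 T cells gave both members at that level lower, Ctla4 and Vsir, beside 11.4% and 4.98% of 2931 genes. Type II-like epithelial over general capillary endothelial cells gave none called in either direction, beside 13.7% and 28.7% of 3633 genes, with no member at 50 CPM in either class.

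Some classes held small numbers of UMIs of genes that other cell types define. The neutrophil gate had 55 Ctla4 UMIs in 24 cells, 20.6 CPM (15.5 to 26.8), and the neutrophils with no UMI of the 6 T cell gate genes had 11, 4.84 CPM (2.42 to 8.66). Naive-like CD8 T cells had 18 Cd86 UMIs in 11 cells, 18.9 CPM (11.2 to 29.8), and activated CD4 T cells 0. The epithelial lineage as a whole had 49 Cd86 UMIs in 24 of 882 cells, of which its 2 named classes held 4. The part of mixed droplets in these values was not tested.

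The partners of the 10 genes and related regulators were counted in 5 lists of 34 genes. In regulatory over activated CD4 T cells, 14 of the 34 reached 50 CPM, and 2 were 2-fold or more higher, the CD200 receptor gene Cd200r1 (74.0 and 25.9 CPM) and the transcription factor gene Ikzf2 (1519 and 282 CPM), while Cd96, Lgals3 and Cd200 were lower, beside 2.5% and 2.53% of all genes at that level. In activated over naive-like CD4 T cells, 5 of 11 were higher and none lower: Icos (578 and 184 CPM), a costimulator of the CD28 family, Lgals3, Cd200, Nr4a2 and Ikzf2, beside 14.9% and 3.5% of all genes. In effector or memory over naive-like CD8 T cells, 5 of 12 were higher, Icos, Lgals9, Lgals3, Nr4a2 and Ikzf2, and none lower, beside 7.86% and 2.62%; Tox, known from exhausted T cells, had 58.2 CPM in the former, 221 CPM in activated CD4 and 441 CPM in regulatory T cells.

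In mature over type 2 dendritic cells, 1 of 12 listed genes at that level was higher, Cd200 (286 and 3.95 CPM, log2 ratio 6.18, 4.80 to 8.07), and 5 were lower: Lgals9, Lgals3, Cd200r1, Sirpa and Cd244, beside 11.1% and 15% of all genes. Pvr, the main TIGIT ligand, had its highest level in mature dendritic cells with 89.0 CPM (67.4 to 115). Type 2 dendritic cells had 70.0 CPM (54.7 to 88.3), which overlaps, and classical monocytes had 63.3 CPM. The other TIGIT ligand genes were highest outside the immune cells, Nectin2 at 147 CPM in Hopx-positive and 117 CPM in type II-like epithelial cells and Nectin3 at 261 CPM in aerocytes. Lgals9, which encodes the TIM-3 ligand galectin-9, was at 154 CPM in general capillary endothelium and 53.5 CPM in type II-like cells, lower in the latter by a log2 ratio of -1.52 (-1.83 to -1.23). The type II-like cells, with at most 2.16 CPM of any of the 5 ligand genes, thus carried UMIs of Nectin2, Lgals9 and Lgals3 (151 CPM).

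The genes with the pattern most like each member were named by the Pearson correlation of log2(CPM + 10) over the 24 classes, whose points share libraries and depth. For Pdcd1 these were Tff1 (r = 0.91; 74 UMIs in 32 regulatory T cells), Rln3 (0.91) and Ttc39c (0.89). For Ctla4 they were the costimulatory receptor gene Tnfrsf4 (0.93), Izumo1r (0.92) and the gate gene Cd6 (0.91), and for Tigit Klrg1 (0.95), Rrm2 (0.92) and Calca (0.89), of which Calca came from 9 regulatory T cells, 1 with 28 of the 49 UMIs. Havcr2 went with the lysosomal genes Man2b1 (0.87) and Gm2a (0.83) and with Dna2 (0.82). Cd80 and Cd86 both had Cd83, a marker of activated dendritic cells, among their 3, with 0.84 and 0.93. For Lag3 the closest was Slco4a1 at 0.70, for Cd274 Baz1a at 0.75, for Pdcd1lg2 Zfand6 at 0.77 and for Vsir Fxyd5 at 0.84. Among the members themselves the highest value was that of Pdcd1 and Ctla4, 0.89, followed by Cd80 with Cd86, Pdcd1 with Tigit and Ctla4 with Tigit, each 0.79, and Cd274 with Pdcd1lg2, 0.72.

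**Figure D5:**
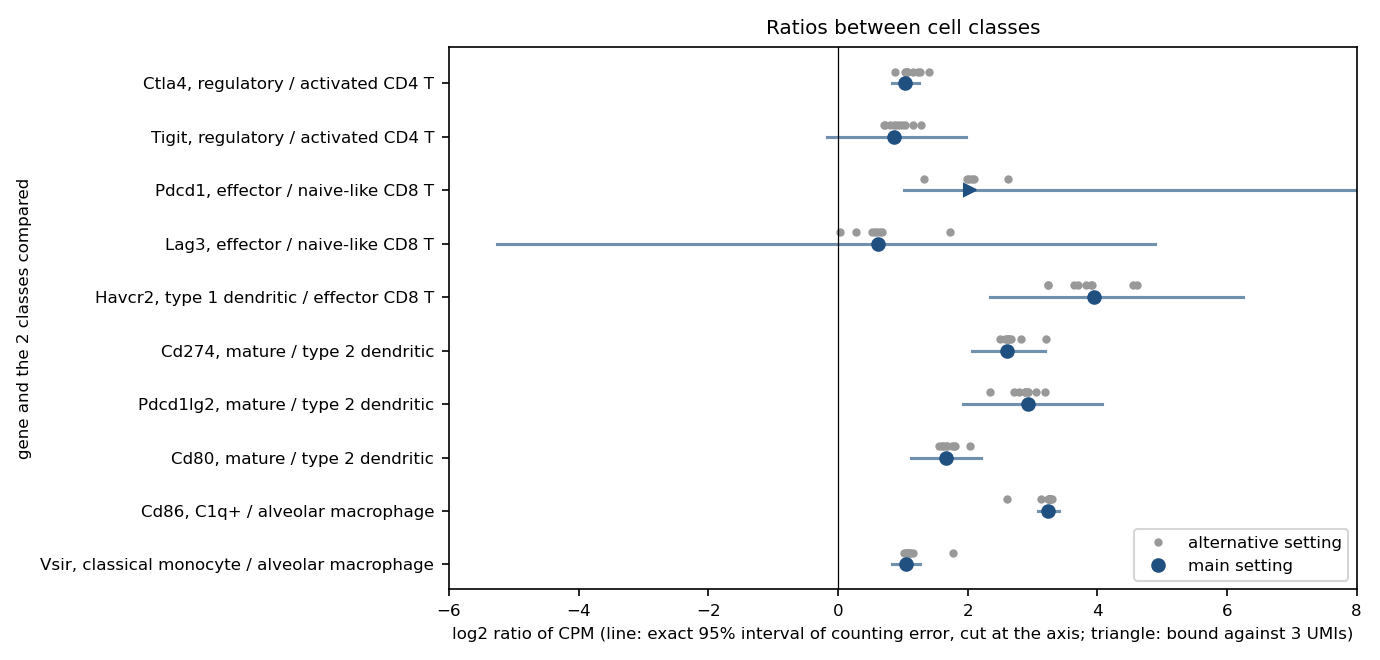
Log2 ratios of CPM for the 10 main pairs of gene and classes (blue points; lines are exact 95% intervals of counting error, cut at the edge of the axis; the triangle is a bound against 3 UMIs) with the value under each other processing (grey points). The intervals of Tigit and of Lag3 include 0, the other 8 lie above it, and no grey point falls below 0.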

How the data were processed

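Cells of 4 microdissected mouse lung tumor samples were profiled with 10x Genomics 3′ v3 chemistry. Per the file header and the labels, the authors aligned the reads with Cell Ranger 3.0.2 to mm10 and deposited 1 matrix of unnormalised UMI counts for all 4 libraries, with GFP and TdTomato added as features. The files used here do not tie cells to mice, so the matrix is 1 sample and no test was run. One further allele that all 4 mice carried is not reported here.

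Cells with at least 200 genes and at or under the 98th percentile of genes (2713) and mitochondrial share (13.4%) were kept, with 500 to 27215 UMIs each. A lineage needed UMIs of at least 2 of its 6 gate genes and at least 1 more than any other lineage, and a cell with none stayed out. T cells were split by Cd4, Cd8a, Cd8b1, Foxp3 and Trdc, then by naive and activated gene lists. Scrublet (scanpy 1.11.5) called 210 of 20299 cells doublets (1.03%), which were kept except in an alternative. The members, gates and lists were chosen with earlier results of these data known.

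Levels were summed UMIs in CPM with exact Poisson 95% intervals, log2 ratios had exact conditional intervals, and shares had Clopper-Pearson intervals after thinning each cell to 1000 UMIs (shallower cells left out). A count of 0 allows up to 3 UMIs per class. A gene was called at a 2-fold difference of log2(CPM + 10) where either class had at least 50 CPM. The ratio script was tested on simulated data. For each member, the 3 genes with the highest correlation over the classes were named. Gene positions are from GENCODE vM21 (mm10), which held 30934 of the 31055 feature IDs, and promoters from RefSeq (GRCm38.p6). Ctla4, Cd274 and Pdcd1lg2 overlap other annotated genes (Rpl18-ps1, AC119228.1 and A930007I19Rik). Analyses used Python 3.11.15, numpy 2.4.6, pandas 2.3.3, scipy 1.17.1, R 4.3.3 and Seurat 5.3.0. Alternatives changed the gene minimum, upper cut-offs, doublets, gates, weighting and clustering.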

Additional observations from a re-analysis of the deposited data

How the results depend on the processing

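The 10 ratios between cell classes were recomputed under up to 10 other settings, giving 88 values: 83 lay inside the main value's own interval, 5 outside it and 0 changed direction. Some main intervals were wide, such as -5.26 to 4.89 for Lag3 and 1.03 to infinity for Pdcd1. A value inside such an interval says little about how stable the ratio is. For the 8 ratios whose interval leaves out 0, 62 of the recomputed values had an interval and 0 of these included 0. The Pdcd1 ratio is 1 of these 8, and its 3 settings with too few UMIs for a value are not among the 62. The count therefore does not cover the settings where Pdcd1 was weakest. With at most 1 gate gene of any other lineage, the Cd274 ratio of mature over type 2 dendritic cells was 3.20. Without TdTomato-positive cells outside the epithelium, the Cd86 ratio of C1q over alveolar macrophages was 2.60 and the Vsir ratio of classical monocytes over alveolar macrophages 1.77, on 26 and 32 alveolar macrophage UMIs. The Ctla4 ratio of regulatory over activated CD4 T cells was 1.27 as a mean of per-cell CPM and 1.41 when activated CD4 T cells also lacked Il2ra and Ikzf2 UMIs. The cause of these shifts was not tested. In 4 cases no value could be given, 3 for Pdcd1 and 1 for Lag3 in effector or memory over naive-like CD8 T cells, with 3 or fewer UMIs against 0. In the clustering alternative, the broad kinds were chosen after the clusters were seen. Shares of cells moved with the thinning depth: 7 of 30 stayed within the interval at 1000 UMIs, and that of Ctla4 in regulatory T cells was 37.7% at 500 and 76.1% at 2000 UMIs. No paired analysis was possible because cells could not be tied to mice and no test was run. Tigit and Lag3 in CD8 T and NK cells rest on at most 7 UMIs per class, so differences there were not detectable at this depth.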
